A study of Mus musculus with 15 samples.

Results

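The cytoplasmic ribosomal protein genes, here called RP genes, encode the proteins of the ribosome that translates nuclear mRNAs in the cytoplasm. They were taken by name: every gene of the expression table whose symbol starts with Rpl or Rps followed directly by a digit, except the S6 kinase genes (Rps6k), together with *Rplp0*, *Rplp1*, *Rplp2* and *Rpsa*. This gave 90 of 17454 genes. Of these, 76 encode standard ribosomal proteins and are called canonical below, with 42 proteins of the large subunit, 3 of its stalk and 31 of the small subunit. The other members were 8 paralogs, 5 pseudogenes and *Rps19bp1*, which encodes a binding partner of Rps19 and not a ribosomal protein. *Rpl26* was not analysed here.

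The study asked what loss of *Ezh2*, the methyltransferase subunit of Polycomb repressive complex 2, does to erythro-myeloid progenitors (EMPs), transient blood progenitors that bud from yolk sac endothelium. EMPs were sorted as lineage- and SCA1-negative, KIT+CD41+CD16/32+ cells from yolk sacs of E10.5 C57BL/6 mouse embryos, and RNA of a small number of cells per library was amplified by PCR and sequenced. All embryos were homozygous for the floxed allele, Ezh2fl/fl, in which Cre removes exons of the catalytic SET domain. Tie2-Ezh2-KO EMPs (Ezh2fl/fl; Tie2-CreTg/+, 5 libraries) lost *Ezh2* in endothelium, before blood cells emerged, and Vav-Ezh2-KO EMPs (Ezh2fl/fl; Vav-CreTg/+, 5 libraries) lost it once cells were hematopoietic. Control genotypes carried no Cre, as Ezh2fl/fl; Tie2-Cre+/+ (Tie2-Ezh2-WT, 3 libraries) and Ezh2fl/fl; Vav-Cre+/+ (Vav-Ezh2-WT, 2 libraries), and the 5 together are called WT. Libraries are named by group and replicate number. Per-library values follow the order Tie2-Ezh2-WT 4, 10 and 12 and Vav-Ezh2-WT 4 and 6 for WT, Tie2-Ezh2-KO 7, 9, 11, 13 and 17, and Vav-Ezh2-KO 1, 9, 10, 26 and 28.

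A ribosome holds 1 copy of most of its proteins, so their genes are expressed in near-equal molar demand and their mRNAs are among the most abundant of growing cells. Most vertebrate RP mRNAs begin with a 5′ terminal oligopyrimidine (TOP) tract, through which mTOR signaling controls their translation as a class. Blood formation is sensitive to ribosomal protein dosage: heterozygous loss of several RP genes causes Diamond-Blackfan anemia, in which red cell production fails.

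Levels are in RPKM, reads scaled to gene length and to the total of reads on genes, which are relative to the total of the library and comparable between genes per length only. The libraries held 10407398 to 41025074 reads on genes, with a median of 16091836. Differences are on the log2(RPKM + 0.2) scale and were tested with limma over every gene that exceeded 0.2 RPKM in 1 or more of the libraries compared, and a gene was called at a Benjamini-Hochberg adjusted p under 0.05. Of the members, 89 were tested and 1, *Rpl10l*, was at 0 in every library. In bulk samples, fewer cells of a type and less RNA per cell cannot be told apart.

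The targeted gene was read first, to check the labels. *Ezh2* (chr6:47530274-47595270, GRCm38) measured 36.9, 39.5, 30.1, 41.95 and 41.5 RPKM in WT libraries, 27.8, 26.2, 24.8, 29.5 and 26.5 RPKM in Tie2-Ezh2-KO and 33.7, 42.4, 37.8, 38.1 and 34.04 RPKM in Vav-Ezh2-KO libraries. Every Tie2-Ezh2-KO library lay below every WT library, whereas the Vav-Ezh2-KO and WT values overlapped. Tie2-Ezh2-KO EMPs had a log2 change of -0.48, standard error 0.12, adjusted p = 0.0418 with limma. For Vav-Ezh2-KO EMPs it was -0.02, standard error 0.11, adjusted p = 0.969 with limma. The values cover the whole gene and not only the deleted exons, so they bear on the label of the Tie2-Ezh2-KO group and cannot check that of the Vav-Ezh2-KO group. The authors assayed the deleted exon in both knockouts separately, which is not part of these values. The call in Tie2-Ezh2-KO EMPs was lost, at a log2 change of -0.45 to -0.49, when Tie2-Ezh2-WT 4 or 10, Vav-Ezh2-WT 4 or 6, or Tie2-Ezh2-KO 7, 11 or 17 was left out, and also with limma-voom, a tool for read counts run here on the recovered reads (adjusted p = 0.0812 for *Ezh2*).

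The sorted cells were checked against markers. All 7 EMP markers (*Kit*, *Itga2b*, *Fcgr3*, *Ptprc*, *Runx1*, *Myb* and *Gata2*) were above 0 in every library, with *Fcgr3* the most abundant, and their summed level was 282, 350.2, 326, 327 and 278 RPKM in WT libraries, 298, 202, 266, 315 and 318 RPKM in Tie2-Ezh2-KO and 342, 413, 235, 333 and 325 RPKM in Vav-Ezh2-KO libraries. None of the 7 was called in either knockout against WT. Markers of other cell types are given further below.

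RP genes made up a large and uneven share of the transcriptome. The 90 members together took 7.97, 8.92, 9.82, 9.76 and 9.72% of the summed RPKM in WT libraries, 8.41, 11.04, 8.198, 8.03 and 9.38% in Tie2-Ezh2-KO libraries and 10.2, 10.4, 11.3, 9.88 and 13.4% in Vav-Ezh2-KO libraries. Vav-Ezh2-KO 28 was the highest of the 15 libraries and Tie2-Ezh2-WT 4 the lowest, and Tie2-Ezh2-KO 9 stood above the other libraries of its group. The mean share was 9.24% ± 0.799 (SD, n = 5) in WT, 9.01% ± 1.25 (SD, n = 5) in Tie2-Ezh2-KO and 11.02% ± 1.41 (SD, n = 5) in Vav-Ezh2-KO EMPs. The difference from WT was thus -0.225 percentage points in Tie2-Ezh2-KO EMPs, under the spread between libraries, and 1.78 percentage points in Vav-Ezh2-KO EMPs, above the SD of either group, with every Vav-Ezh2-KO library above the highest WT library, by 9.88% to 9.82% at the closest. Without Tie2-Ezh2-KO 9 the former difference was -0.733 percentage points and without Tie2-Ezh2-KO 13 it was 0.0199. Without Vav-Ezh2-KO 28 the latter difference was 1.19 percentage points. Both knockouts were set against the same 5 WT libraries. Since RP genes are short, the same members took a smaller share of the reads, from 3.56% in Tie2-Ezh2-KO 13 to 6.45% in Vav-Ezh2-KO 28. As a share of reads, WT and Vav-Ezh2-KO libraries overlapped, with Vav-Ezh2-KO 26 at 4.62% below Tie2-Ezh2-WT 12 at 4.74% and Vav-Ezh2-WT 4 at 4.64%.

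**Figure D1:**
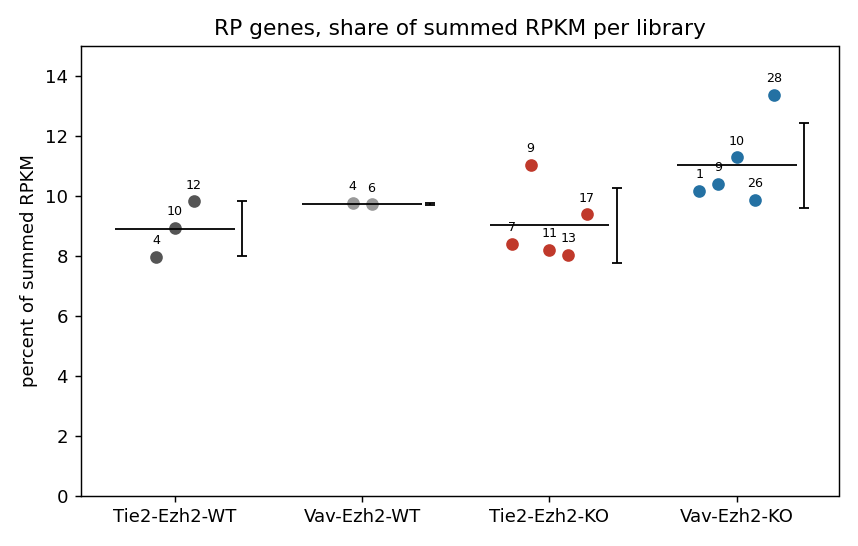
Percent of the summed RPKM of each library taken by the 90 RP genes (vertical axis) in the 4 groups of libraries (horizontal axis). Points are libraries with their replicate numbers, horizontal lines are group means and bars beside them are the mean ± SD. Vav-Ezh2-KO libraries ran from 9.88% to 13.4% and WT libraries from 7.97% to 9.82%.

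Both subunits took part in these shares in a near-constant ratio. Large subunit members took 3.86, 4.29, 4.66, 4.703 and 4.72% of the summed RPKM in WT libraries, 4.07, 5.27, 3.92, 3.898 and 4.49% in Tie2-Ezh2-KO and 4.86, 4.996, 5.38, 4.76 and 6.42% in Vav-Ezh2-KO libraries. Small subunit members took 3.41, 3.84, 4.28, 4.19 and 4.13% (WT), 3.58, 4.85, 3.54, 3.43 and 4.05% (Tie2-Ezh2-KO) and 4.42, 4.49, 4.89, 4.25 and 5.73% (Vav-Ezh2-KO). Stalk members took 0.392% to 0.719%. The ratio of large subunit plus stalk to small subunit was between 1.19 in Tie2-Ezh2-KO 9 and 1.27 in Vav-Ezh2-WT 6, so that the library with the lowest ratio was also the Tie2-Ezh2-KO library with the highest share. Mitochondrial ribosomal proteins, translated in the cytoplasm and imported to build the separate ribosome of mitochondria, took 1.74% to 2.23%, with a mean of 1.86% in WT, 1.92% in Tie2-Ezh2-KO and 1.90% in Vav-Ezh2-KO EMPs.

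Of the 100 genes with the highest mean over WT libraries, 26 were RP genes, and 68 of the 76 canonical members were among the first 500. The median canonical member had a WT mean of 592 RPKM, against 4.22 RPKM for the median gene tested. *Rplp0*, *Rpl13* and *Rpl4* were among the most abundant members, and *Rps27* was the least abundant canonical member. By WT mean, 16 canonical members were at 1000 RPKM or more, 55 from 100 to 1000 RPKM and 5 under 100 RPKM. The coefficient of variation over the 5 WT libraries was 13.8% for the median canonical member.

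*Rplp0* (chr5:115559467-115563729), the base of the stalk that recruits the translation GTPases, measured 1333, 1534, 1686, 1847 and 1735 RPKM in WT libraries, 1647, 1744, 1477, 1209 and 1520.0 RPKM in Tie2-Ezh2-KO and 1764, 1724, 1884, 1751 and 2063 RPKM in Vav-Ezh2-KO libraries. *Rpl13* (chr8:123102350-123105244), in the large subunit, measured 1268, 1488, 1645, 1722 and 1640.1 (WT), 1523, 1888, 1353, 1297 and 1577 (Tie2-Ezh2-KO) and 1682, 1726, 1920.2, 1655 and 2231 (Vav-Ezh2-KO) RPKM. Tie2-Ezh2-WT 4 and Tie2-Ezh2-KO 13 were the lowest libraries for *Rplp0* and *Rpl13*, Vav-Ezh2-KO 28 was the highest, and the groups overlapped.

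*Rpl4* (chr9:64173387-64178562), which lines the tunnel through which the new peptide leaves, measured 1389, 1368, 1547, 1434 and 1417 (WT), 1523, 1743, 1535, 1247 and 1342 (Tie2-Ezh2-KO) and 1465, 1510.0, 1533, 1409.5 and 1585 (Vav-Ezh2-KO) RPKM. These values were close together, with only Tie2-Ezh2-KO 9 above 1600 RPKM. *Rpl3* (chr15:80077781-80083406), next to the peptidyl transferase center, measured 779.8, 778, 927, 798 and 872 (WT), 901, 942, 866, 710.0 and 849.7 (Tie2-Ezh2-KO) and 899, 892, 877, 885 and 904 (Vav-Ezh2-KO) RPKM. For *Rpl3*, Tie2-Ezh2-KO 13 was the lowest of 15 and Vav-Ezh2-KO values lay within a narrow band, 891 ± 10.8 RPKM (SD, n = 5). None of these 4 genes was called in any of the 4 comparisons.

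At the other end, 3 canonical members were near the level of ordinary genes. *Rps27* (chr3:90212667-90213648), a zinc finger protein of the small subunit, measured 8.52, 10.9, 11.9, 11.7 and 14.5 RPKM in WT libraries, 9.39, 11.7, 10.7, 10.2 and 10.8 RPKM in Tie2-Ezh2-KO and 9.67, 12.8, 11.8, 13.3 and 12.7 RPKM in Vav-Ezh2-KO libraries, from 51 to 280 reads per library. *Rpl30* (chr15:34440505-34443276), a large subunit protein that contacts the small subunit, measured 14.9, 17.5, 20.2, 17.8 and 18.6 (WT), 18.6, 27.8, 20.5, 14.3 and 14.99 (Tie2-Ezh2-KO) and 17.1, 16.2, 25.4, 18.2 and 20.7 (Vav-Ezh2-KO) RPKM, from 97 to 519 reads. Values of both genes overlapped between all groups, and no library was at 0. *Rps15a* (chr7:118104374-118116147), of the small subunit, measured 19.9, 25.2, 27.2, 29.7 and 30.1 (WT), 18.2, 34.7, 16.2, 20.4 and 26.9 (Tie2-Ezh2-KO) and 33.5, 35.4, 39.6, 29.5 and 59.1 (Vav-Ezh2-KO) RPKM, from 1061 to 8710 reads. Its reads were divided by a gene length of 5134 bases, the longest of any canonical member, whereas the median canonical member had 706 bases.

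Levels of single RP genes are uncertain, because the genome holds many processed copies of them and the authors kept 1 alignment per read. In the annotated protein-coding transcripts of the canonical members, a median of 33.2% of all 75-base windows, the length of a read, also occurred in a transcript of another gene. For 25 of 76 canonical members, over 50% of windows were shared. A window counted whichever other gene held it, without regard to position, so genes that overlap a member count too. *Rpl35* shared 54.9% of its windows with *Wdr38*, and *Rps25* shared 27.7% with *Trappc4*. The percents thus do not measure processed copies alone. *Rps27* shared 42.4% of its windows with *Rps27rt*, and *Rpl30* shared 65.3% with 12 other genes. *Rps15a* shared 3.50%. Across the 76 members, which share the same libraries, the percent of windows shared and the WT mean had a Spearman rho of 0.14. The part of shared reads in the low values was not tested.

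In Tie2-Ezh2-KO against WT, 0 of 89 members were called with limma, where 386 of 14154 genes tested were called (2.73%), 0 had an unadjusted p under 0.05, and limma-voom called 0. The median change of the members was -0.05, beside 0.01 for all genes tested, with 25 members higher and 64 lower. Large subunit members had a median of -0.04, the 3 stalk members -0.11 and small subunit members -0.06. The 5 canonical members with the largest absolute change were *Rpl22*, *Rps15a*, *Rpl39*, *Rpl41* and *Rpl10*, all lower in the mean and all with overlapping groups.

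*Rpl22* (chr4:152324436-152334082), an RNA-binding protein of the large subunit that T cell development requires, measured 29.7, 35.96, 43.5, 39.4 and 40.1 RPKM in WT libraries, beside 28.1, 38.8, 27.2, 29.5 and 36.9 RPKM in those of Tie2-Ezh2-KO, a log2 change of -0.24, standard error 0.14, unadjusted p = 0.111, adjusted p = 0.652 with limma. *Rpl10* (chrX:74270816-74273135), which joins the large subunit late in its assembly, measured 733, 823, 874, 1209 and 1115 (WT) and 806, 1292, 626, 702 and 811 (Tie2-Ezh2-KO) RPKM, a change of -0.19, standard error 0.18, unadjusted p = 0.326, adjusted p = 0.875 with limma. Both WT libraries of the Vav line exceeded the 3 of the Tie2 line for *Rpl10*. In Tie2-Ezh2-KO 9, *Rpl10* was higher than in any WT library, whereas the other 4 Tie2-Ezh2-KO libraries were below the WT mean. Changes of the other 3 were -0.22, standard error 0.19 for *Rps15a*, -0.21, standard error 0.16 for *Rpl39* and -0.21, standard error 0.17 for *Rpl41*, with adjusted p of 0.803 to 0.848 with limma.

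Tie2-Ezh2-KO 9 differed from its group across the members. Its RP level, the mean over canonical members of the log2 value relative to each gene's mean over 15 libraries, was 0.29, and that of Tie2-Ezh2-KO 7, 11, 13 and 17 was -0.26, -0.31, -0.40 and -0.08. WT libraries had -0.38, -0.15, 0.04, 0.02 and -0.00 and Vav-Ezh2-KO libraries 0.10, 0.15, 0.32, 0.02 and 0.63. Without Tie2-Ezh2-KO 9, the median change of the members against WT was -0.17, with 84 of 89 lower. Of these, 6 had an unadjusted p under 0.05, where 428 of all 14035 genes tested were lower at that p. Of all genes tested, 56.8% were higher in that fit, and limma still called 0 members. With only the 3 Tie2-Ezh2-WT libraries as controls, the median change was 0.02.

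**Figure D2:**
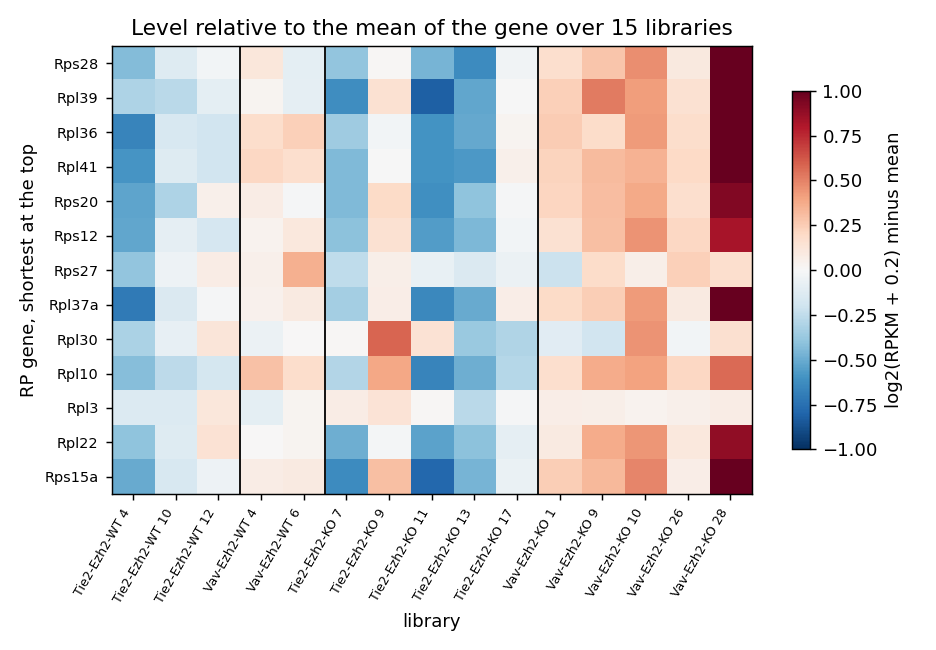
Level of 13 canonical RP genes, those least abundant, least correlated, with the largest changes or called (rows, shortest gene length at the top), in the 15 libraries (columns, split by group), as log2(RPKM + 0.2) minus the mean of the gene, with differences beyond 1 shown in the end colors. Over all 76 canonical members, the RP level was -0.38 in Tie2-Ezh2-WT 4, -0.40 in Tie2-Ezh2-KO 13 and 0.63 in Vav-Ezh2-KO 28.

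In Vav-Ezh2-KO against WT, all 76 canonical members had a higher mean log2 level in the knockout, and none was called. The test called 1 of 13646 genes, or 0.00733%, and 0 of 89 members with limma and 0 with limma-voom, and the lowest adjusted p of a member was 0.519. At an unadjusted p under 0.05, 60 of 89 members were higher and 0 lower, where 4.001% of all genes tested were higher. With limma-voom, 63 members were higher, as were 567 of all 13646 genes tested. The median change of the members was 0.35, beside -0.02 for all genes tested, with 87 members higher and 2 lower, the paralog *Rpl7l1* and the pseudogene *Rpl34-ps1*. By role, 32 of 42 large subunit members, 2 of 3 stalk members and 22 of 31 small subunit members had an unadjusted p under 0.05, at median changes of 0.35, 0.43 and 0.34. The count of 60 rested in part on single libraries, being 34 without Tie2-Ezh2-WT 4 and 36 without Vav-Ezh2-KO 28. It was 6 against the 2 Vav-Ezh2-WT libraries alone, where the median change was 0.25. Over all genes tested, 389 of 13464, 459 of 13577 and 345 of 13284 were higher in those fits, against 546 of 13646. The member count was 38 with quantile normalization, 40 without the trend in empirical Bayes and 45 with no filter. Over all genes tested, 563 of 13646, 456 of 13646 and 555 of 17454 were higher there.

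All Vav-Ezh2-KO libraries exceeded all WT libraries for 9 members, among them *Rpl37a*, *Rps12*, *Rpl15*, *Rpl10a*, *Rps18*, *Rps20*, *Rpl18* and *Rpl39*, where 0.601% of all genes tested were separated in this direction. *Rpl39* (chrX:37082518-37085222), a small protein in the wall of the exit tunnel, measured 296, 303, 342, 372 and 344 RPKM in WT libraries, beside 432, 523, 488, 407 and 852 RPKM in those of Vav-Ezh2-KO. Vav-Ezh2-KO 28 was far above the other libraries, and the lowest Vav-Ezh2-KO value still exceeded the highest WT value. Its change was the largest of the canonical members, 0.66, standard error 0.16, unadjusted p = 0.00108, adjusted p = 0.519 with limma.

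*Rpl37a* (chr1:72711260-72713813), a zinc-binding protein of the large subunit, measured 206, 303, 333, 345 and 358 RPKM in WT libraries, beside 383, 399, 452, 358 and 729.8 RPKM in those of Vav-Ezh2-KO, where Vav-Ezh2-KO 26 nearly touched Vav-Ezh2-WT 6. The change was 0.56, standard error 0.19, unadjusted p = 0.00887, adjusted p = 0.542 with limma. *Rps20* (chr4:3831584-3835655), in the head of the small subunit, measured 246, 288, 369, 375 and 353 (WT) and 414, 442, 462, 401 and 678 (Vav-Ezh2-KO) RPKM, a change of 0.54, standard error 0.15, unadjusted p = 0.00247, adjusted p = 0.519 with limma. Every Vav-Ezh2-KO library exceeded every WT library for *Rps20*, by the least between Vav-Ezh2-KO 26 and Vav-Ezh2-WT 4. *Rps28* (chr17:33823036-33824562), at the mRNA exit site of the small subunit, measured 297, 368, 393, 435 and 375 (WT) and 451, 486, 554, 429 and 857 (Vav-Ezh2-KO) RPKM, a change of 0.53, standard error 0.16, unadjusted p = 0.00532, adjusted p = 0.542 with limma. Here Vav-Ezh2-KO 26 was below Vav-Ezh2-WT 4, so the groups overlapped.

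*Rps15a*, whose per-library values are given above, had a change of 0.55, standard error 0.17, unadjusted p = 0.00577, adjusted p = 0.542 with limma, with Vav-Ezh2-KO 28 at 59.1 RPKM and Vav-Ezh2-KO 26 within the WT range. Some abundant members had smaller differences in the mean: 0.18, standard error 0.10 for *Rplp0*, 0.25, standard error 0.11 for *Rpl13* and 0.07, standard error 0.08 for *Rpl4*. Others did not, with 0.52, standard error 0.17 for *Rpl41* and 0.40, standard error 0.11 for *Rps18*, both above 1000 RPKM in the WT mean. Over the 76 canonical members, the WT level and the change had a Spearman rho of -0.40, and gene length and the change one of -0.51. The Pearson r, with level and length on log scales, was weaker, at -0.13 and -0.38. The members share the same 10 libraries, so these describe the libraries and carry no test.

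Short genes that are not RP genes differed in the same direction. Among genes other than RP genes with a mean above 5 RPKM, the median change in Vav-Ezh2-KO against WT was 0.26 for 180 genes under 600 bases (151 higher, 29 lower), 0.13 for 510 genes from 600 to under 1000 bases, 0.00 for 1984 genes from 1000 to under 2000 bases, -0.06 for 2955 genes from 2000 to under 4000 bases and -0.08 for 1149 longer genes. RP genes of the first 3 classes had medians of 0.42 (n = 34), 0.31 (n = 34) and 0.22 (n = 14), above those of the other genes of like length. After each library's trend of level with length was removed, which was chosen after seeing the data, the median change of the members was 0.23. Of the members, 84 were higher and 5 lower, and limma called 0. At an unadjusted p under 0.05, 46 members were higher, as were 504 of all 13646 genes tested. The part of gene length in the differences between libraries was not tested.

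**Figure D3:**
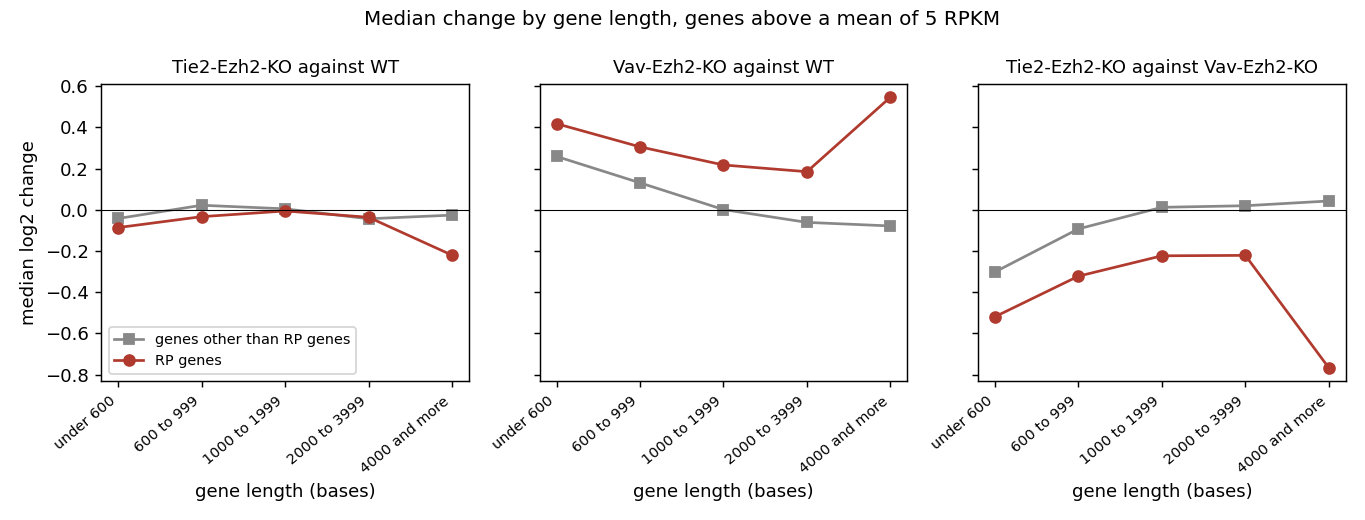
Median log2 change (vertical axis) by class of gene length in bases (horizontal axis) for RP genes and all other genes with a mean above 5 RPKM, in 3 comparisons. In Vav-Ezh2-KO against WT the medians of genes under 600 bases were 0.42 for 34 RP genes and 0.26 for 180 others; the 2 longest classes hold only 3 and 1 RP genes, the last being *Rps15a*.

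Set directly against each other, 7 members were called lower in Tie2-Ezh2-KO than in Vav-Ezh2-KO EMPs: *Rpl39*, *Rpl41*, *Rpl36* and *Rpl22* of the large subunit and *Rps28*, *Rps20* and *Rps12* of the small subunit. Of all 14120 genes tested, 3.51% were called and 0.871% were called lower in Tie2-Ezh2-KO, and no member was called higher. The RP levels of the libraries overlapped, with Tie2-Ezh2-KO 9 above Vav-Ezh2-KO 1, 9 and 26. At an unadjusted p under 0.05, 50 members were lower, where 6.05% of all genes tested were. The median difference of the members was -0.38, beside 0.04 for all genes tested, with 4 members higher and 85 lower. Every Tie2-Ezh2-KO library was below every Vav-Ezh2-KO library for 7 members, *Rpl37a*, *Rpl41*, *Rps2*, *Rps28*, *Rpl36*, *Rpl22* and *Rpl39*, where 1.67% of all genes tested were. The count of calls was unstable over libraries. It was 0 without Tie2-Ezh2-KO 7, 11 or 13 or without Vav-Ezh2-KO 10 or 28. It was 1 without Vav-Ezh2-KO 9 and 49 without Tie2-Ezh2-KO 9. In the last fit, 339 of all 14004 genes tested were called lower, against 123 of 14120 with all libraries. In the fits without Tie2-Ezh2-KO 7, 11 or 13 or Vav-Ezh2-KO 9, 10 or 28, 74 to 92 genes were called lower. The count of members called was also 0 with no filter, with each library scaled to a common median and without the trend in empirical Bayes. Over all genes tested, 63 of 17454, 122 of 14120 and 71 of 14120 were called lower there. With limma-voom 7 members were called, but *Rps20* and *Rps28* were not among them, and 107 of all 14120 genes tested were called lower. The count at an unadjusted p under 0.05 was 32 without Vav-Ezh2-KO 28 and 75 without Tie2-Ezh2-KO 9. Over all genes tested, 749 of 14072 and 1076 of 14004 were lower in those fits, against 854 of 14120 with all libraries.

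*Rpl39* measured 238, 406, 208, 255 and 365 RPKM in Tie2-Ezh2-KO and 432, 523, 488, 407 and 852 RPKM in Vav-Ezh2-KO libraries, a difference of -0.87, standard error 0.21, adjusted p = 0.0333 with limma. The highest Tie2-Ezh2-KO library, 9, was just under Vav-Ezh2-KO 26, the lowest of the other group. *Rpl41* (chr10:128548110-128549168), a very small protein at the interface of the subunits, measured 928, 1260.0, 831, 846 and 1302 (Tie2-Ezh2-KO) and 1472, 1569, 1608, 1448 and 2530.4 (Vav-Ezh2-KO) RPKM, a difference of -0.73, standard error 0.17, adjusted p = 0.0306 with limma. *Rpl36* (chr17:56610094-56614246), of the large subunit, measured 394, 494, 332, 352 and 513 (Tie2-Ezh2-KO) and 599, 572, 678, 569.7 and 1019 (Vav-Ezh2-KO) RPKM, a difference of -0.71, standard error 0.17, adjusted p = 0.0324 with limma. For both genes the groups did not overlap, and Vav-Ezh2-KO 28 stood far above the next library.

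*Rpl22* measured 28.1, 38.8, 27.2, 29.5 and 36.9 RPKM in Tie2-Ezh2-KO and 42.00, 51.05, 53.4, 42.4 and 73.03 RPKM in Vav-Ezh2-KO libraries, a difference of -0.69, standard error 0.16, adjusted p = 0.0259 with limma. It had the lowest adjusted p of the members, and the groups did not overlap. *Rps28* measured 305, 406, 291, 259 and 393 (Tie2-Ezh2-KO) and 451, 486, 554, 429 and 857 (Vav-Ezh2-KO) RPKM, a difference of -0.72, standard error 0.18, adjusted p = 0.0393 with limma, again without overlap. *Rps12* (chr10:23785183-23787383), of the small subunit, measured 196, 289.8, 177, 190.4 and 256 (Tie2-Ezh2-KO) and 289, 321, 355, 300.0 and 461 (Vav-Ezh2-KO) RPKM, a difference of -0.64, standard error 0.16, adjusted p = 0.0333 with limma. *Rps20* measured 262, 406, 233, 269 and 352 (Tie2-Ezh2-KO) and 414, 442, 462, 401 and 678 (Vav-Ezh2-KO) RPKM, a difference of -0.66, standard error 0.17, adjusted p = 0.0452 with limma. For *Rps12* and *Rps20*, Tie2-Ezh2-KO 9 lay within the Vav-Ezh2-KO range and the other 4 libraries of its group below it. Each of the 7 calls was lost when Tie2-Ezh2-KO 7, 11 or 13 or Vav-Ezh2-KO 10 or 28 was left out. In WT, both Vav-Ezh2-WT libraries also exceeded all 3 Tie2-Ezh2-WT libraries for *Rpl36*, *Rpl41*, *Rps12* and *Rpl39*, the same direction as between the knockouts. With each knockout set against its own WT libraries, the difference between the effects was -0.16, standard error 0.29 for *Rpl36*, -0.25, standard error 0.29 for *Rpl41*, -0.31, standard error 0.26 for *Rps12* and -0.68, standard error 0.34 for *Rpl39*, none called. For the other 3 it was -0.54, standard error 0.27 for *Rpl22*, -0.52, standard error 0.30 for *Rps28* and -0.36, standard error 0.29 for *Rps20*, also none called, so none of the 7 calls can be told apart from a difference between the lines. Against WT, the same 7 genes had changes of -0.11 to -0.24 in Tie2-Ezh2-KO and 0.45 to 0.66 in Vav-Ezh2-KO EMPs, and none was called.

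Of the 7 called members, 6 were under 600 bases long and the other was *Rpl22*, with 2040 bases. Other genes under 600 bases had a median difference of -0.30 between the knockouts, and 9 of 180 were called lower in Tie2-Ezh2-KO, whereas 6 of 34 RP genes of that length were. RP genes under 600 bases had a median of -0.52. With the length trend removed, which was chosen after seeing the data, 26 members were called lower in Tie2-Ezh2-KO and 0 higher, where 334 of all 14120 genes tested were called lower, against 123 before. The part of gene length was not tested beyond this.

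Whether the 2 knockouts changed the members differently was tested as the difference between the effects, each against its own WT libraries, in which 0.181% of 14394 genes were called. Of 89 members, limma called 0 and limma-voom 0, and 1 was higher and 1 lower at an unadjusted p under 0.05. Those were the paralogs *Rps4y2* (0.50, standard error 0.23, unadjusted p = 0.0413, adjusted p = 0.714 with limma) and *Rpl22l1* (-0.56, standard error 0.26, unadjusted p = 0.0467, adjusted p = 0.739 with limma). Without Tie2-Ezh2-KO 9, 13 members were lower at an unadjusted p under 0.05, where 414 of 14299 genes tested were. With all libraries, 686 of 14394 genes were higher and 256 lower. The median over the members was -0.26, beside 0.06 for all genes tested, with 79 of 89 below 0.

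Some libraries also differed in markers of other yolk sac cells. Of 3 primitive erythroid markers, *Hba-x* and *Hbb-bh1* rose in Tie2-Ezh2-KO against WT, and *Hbb-y* was not called. Their summed level was 139.6, 126, 142, 65.2 and 118 RPKM in WT libraries, 309, 585, 855, 192 and 284 RPKM in Tie2-Ezh2-KO and 85.00, 121, 59.9, 155 and 152 RPKM in Vav-Ezh2-KO libraries, with *Hbb-bh1* the most abundant gene. *Hba-x*, an embryonic alpha-like globin, had a change of 6.33, standard error 0.62, adjusted p = 8.9e-05 with limma and *Hbb-bh1*, an embryonic beta-like globin, one of 1.18, standard error 0.29, adjusted p = 0.0441 with limma. With limma-voom neither was called, at adjusted p of 0.0802 and 0.0857. The *Hbb-bh1* call was also lost without any 1 of the WT libraries or of Tie2-Ezh2-KO 7, 9 and 11. Both were also called higher in Tie2-Ezh2-KO than in Vav-Ezh2-KO EMPs (5.64, standard error 0.72, adjusted p = 0.000422 with limma and 1.29, standard error 0.31, adjusted p = 0.0302 with limma), the comparison in which the 7 RP genes were called. Tie2-Ezh2-KO 11 had the highest sum and a low RP level, and Tie2-Ezh2-KO 9 had the next highest sum and the highest RP level of its group. The antibodies of the authors include TER119, against erythroid cells, but the text of the paper does not name those of the lineage gate. The part of erythroid cells in the RP levels was not tested.

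The 4 visceral endoderm markers, *Afp*, *Ttr*, *Apoa1* and *Rbp4*, summed to 142, 3.59, 1.603, 3.28 and 5.75 RPKM in WT libraries, 209, 9.18, 3.48, 3.29 and 9.904 RPKM in Tie2-Ezh2-KO and 2.58, 5.24, 3.58, 3.12 and 1.83 RPKM in Vav-Ezh2-KO libraries, with *Apoa1* the most abundant and *Ttr* at 0 in at least 1 library. Tie2-Ezh2-WT 4 and Tie2-Ezh2-KO 7 stood far above the rest. Without both, which was chosen after seeing the data, the median change of the members in Tie2-Ezh2-KO against WT was -0.09 and limma called 0. Endothelial markers (4 genes, most abundant *Pecam1*, with *Cdh5* and *Emcn* at 0 in some library) summed to 12.7 to 29.2 RPKM, and megakaryocyte markers (3 genes, most abundant *Pf4*, with *Ppbp* at 0 in some library) to 37.4 to 227 RPKM. Tie2-Ezh2-KO 9, whose RP level stood apart from its group, had the highest megakaryocyte sum and the lowest endothelial and EMP sums of the 15 libraries. Macrophage markers summed to at most 3.25 RPKM, with 1 of 4 genes at 0 in all libraries, and the 3 mesenchyme markers to at most 0.246 RPKM. The 6 dissociation stress genes summed to 145 to 373 RPKM, lowest in Tie2-Ezh2-KO 9. The mesenchyme markers were too low to be tested. None of the other genes was called in Tie2-Ezh2-KO or Vav-Ezh2-KO against WT, and their part in the RP levels was not tested.

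RP genes varied together over libraries. Over 15 libraries, the Pearson r of log2 levels was above 0 for all 2850 pairs of canonical members, with a median of 0.873 and a range of 0.222 to 0.996. After the mean of each group was subtracted, the median was 0.861. The median was 0.868 among large subunit members and 0.878 among small subunit members. Within the 5 WT libraries it was 0.816, within the 5 of Tie2-Ezh2-KO 0.887 and within the 5 of Vav-Ezh2-KO 0.926. All pairs share the same libraries and the same total to which RPKM is relative, and after quantile normalization, which forces the same distribution of values on each library, the median was 0.614. With the length trend removed, which was chosen after seeing the data, it was 0.820.

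Other genes of the translation machinery varied less closely. The same median was 0.518 for 76 mitochondrial ribosomal proteins, 0.330 for 18 other TOP mRNAs, 0.104 for 57 ribosome biogenesis genes and -0.02 for 50 translation factors. It was 0.399 for 180 other genes under 600 bases and 0.0255 over all pairs of genes tested. After the mean of each group was subtracted, the medians of the lists were 0.613, 0.170, 0.130 and -0.02 in that order. They were then 0.382 for the short genes and 0.03 for all pairs. With quantile normalization, where RP genes had 0.614, the medians of these other genes were not computed. The level of those 180 short genes, measured like the RP level, was -0.18, -0.10, 0.02, 0.03 and -0.05 in WT libraries, -0.26, 0.18, -0.21, -0.25 and 0.03 in Tie2-Ezh2-KO libraries and 0.13, 0.16, 0.19, -0.12 and 0.43 in Vav-Ezh2-KO libraries. It was highest in Vav-Ezh2-KO 28, as the RP level was, and lowest in Tie2-Ezh2-KO 7, whereas the RP level was lowest in Tie2-Ezh2-KO 13. In Tie2-Ezh2-KO 17 and Vav-Ezh2-KO 26 the levels had opposite signs.

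Canonical members with the lowest mean r with the others were *Rps27* (0.528), *Rpl30* (0.580) and *Rpl3* (0.589). The first pair was also the least abundant, and *Rpl3* was abundant and varied little between libraries. Members also differed in how steeply they moved with the others. The slope of a member on the mean of the others was 1.64 for *Rpl39*, 1.62 for *Rps15a* and 1.52 for *Rpl37a*, and 0.244 for *Rpl3* and 0.253 for *Rpl4*. Gene length and slope had a Spearman rho of -0.57, and a Pearson r of -0.41 with length on a log scale, over the 76 members, which share their libraries. Shorter members thus tended to move over a wider range, with *Rps15a*, the longest, on the side of the short ones.

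The stalk of the large subunit holds Rplp0 and dimers of Rplp1 and Rplp2, and its genes were within the range of the others. *Rplp1* (chr9:61913283-61914510) measured 492, 651, 677, 749.8 and 801 RPKM in WT libraries, 570.0, 847, 516, 497 and 714 RPKM in Tie2-Ezh2-KO and 789, 771, 951, 769 and 1295 RPKM in Vav-Ezh2-KO libraries. *Rplp2* (chr7:141447651-141451359) measured 375, 494, 569, 579 and 543 (WT), 421, 616, 399, 359.8 and 547 (Tie2-Ezh2-KO) and 591, 632, 771, 535 and 1085 (Vav-Ezh2-KO) RPKM. Both were lowest in Tie2-Ezh2-WT 4 or Tie2-Ezh2-KO 13 and highest in Vav-Ezh2-KO 28, and the groups overlapped. Between the knockouts, the difference was -0.54, standard error 0.17, adjusted p = 0.1095 with limma for *Rplp1* and -0.61, standard error 0.19, adjusted p = 0.1003 with limma for *Rplp2*. They were named after their values were seen.

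Genes mutated in Diamond-Blackfan anemia followed the other members. Of 18 such genes analysed, limma called 0 in either knockout against WT, with 14 higher at an unadjusted p under 0.05 in Vav-Ezh2-KO and 0 in either direction in Tie2-Ezh2-KO EMPs. Over all genes tested, 4.001% were higher at that p in Vav-Ezh2-KO EMPs. The median change was -0.06 in Tie2-Ezh2-KO and 0.36 in Vav-Ezh2-KO EMPs. Between the knockouts 1 of the 18, *Rps28*, was called lower in Tie2-Ezh2-KO, as 0.871% of all genes tested were.

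*Rps19* (chr7:24884592-24889811), the gene most often mutated in that anemia, measured 889.7, 1055, 1313, 1146 and 1096 RPKM in WT libraries, 978, 1551, 1005, 919 and 1152 RPKM in Tie2-Ezh2-KO and 1296, 1309, 1529, 1097 and 1781 RPKM in Vav-Ezh2-KO libraries. Tie2-Ezh2-KO 9 was the highest of its group and above all WT libraries. *Rpl5* (chr5:107900508-107909005) and *Rpl11* (chr4:136049354-136053393), whose proteins bind 5S rRNA and, when ribosome assembly is impaired, the p53 regulator Mdm2, measured 1076, 1149, 1237, 1099 and 1052 and 428, 532, 559, 684 and 637 RPKM in WT libraries. In Tie2-Ezh2-KO libraries *Rpl5* measured 1001, 1535, 1003, 1016 and 997 and *Rpl11* 502, 725, 466, 445 and 556 RPKM, and in Vav-Ezh2-KO libraries 1157, 1253, 1468, 1059 and 1490.1 and 684, 626, 694, 699 and 938 RPKM. For *Rpl5*, 4 Tie2-Ezh2-KO libraries lay within 19 RPKM of each other and Tie2-Ezh2-KO 9 far above them. Changes in Vav-Ezh2-KO against WT were 0.34, standard error 0.13, adjusted p = 0.549 with limma for *Rps19*, 0.19, standard error 0.10, adjusted p = 0.674 with limma for *Rpl5* and 0.36, standard error 0.13, adjusted p = 0.544 with limma for *Rpl11*.

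Paralogs ranged from full RP levels to 0. *Rps27l*, a paralog of *Rps27* that p53 induces, measured 623, 637, 803, 652 and 608 RPKM in WT libraries, 547, 999.7, 619, 616 and 737 RPKM in Tie2-Ezh2-KO and 773, 783, 935, 616 and 1080.3 RPKM in Vav-Ezh2-KO libraries, so that its WT mean of 665 RPKM was far above the 11.5 RPKM listed for *Rps27*. *Rpl36al*, a paralog of the X-linked *Rpl36a*, measured 454, 517, 744, 555 and 571 (WT), 448, 811, 485, 460.0 and 530.2 (Tie2-Ezh2-KO) and 648, 737, 822, 555 and 1097 (Vav-Ezh2-KO) RPKM. Within the knockout groups, both were highest in Tie2-Ezh2-KO 9 and Vav-Ezh2-KO 28. *Rpl22l1*, the paralog of *Rpl22*, measured 109, 120.4, 136, 126 and 119.8 (WT), 99.5, 157, 97.9, 116 and 124 (Tie2-Ezh2-KO) and 150.2, 190.1, 183, 132 and 238 (Vav-Ezh2-KO) RPKM, above *Rpl22* in every library. For Vav-Ezh2-KO EMPs its change was 0.52, standard error 0.13, unadjusted p = 0.00142, adjusted p = 0.519 with limma, and for Tie2-Ezh2-KO EMPs -0.06, standard error 0.13. The groups of the former overlapped, as Vav-Ezh2-KO 26 was below Tie2-Ezh2-WT 12.

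*Rpl7l1* measured 167, 166, 178, 141 and 152 RPKM in WT libraries, 171, 182, 187, 174 and 155 RPKM in Tie2-Ezh2-KO and 155, 139, 165, 145 and 168 RPKM in Vav-Ezh2-KO libraries. The groups overlapped in every comparison. *Rps4y2*, which RefSeq lists as *Rps4l*, measured 98.7, 115, 133, 163 and 156 (WT), 182, 186, 134, 124 and 175 (Tie2-Ezh2-KO) and 128, 142, 170.4, 181 and 159 (Vav-Ezh2-KO) RPKM, a change of 0.27, standard error 0.16, adjusted p = 0.635 with limma in Tie2-Ezh2-KO EMPs. Of the paralogs known for narrow expression, *Rpl39l* (testis) measured 0.955, 1.34, 0, 2.002 and 0.0622 (WT), 0, 0, 2.85, 0.926 and 0 (Tie2-Ezh2-KO) and 0, 3.84, 0.663, 0.108 and 3.89 (Vav-Ezh2-KO) RPKM and *Rpl3l* (striated muscle) 0, 0.0397, 0, 0 and 0 (WT), 0, 0, 0.338, 0 and 0.03896 (Tie2-Ezh2-KO) and 0.222, 0.136, 0, 0.163 and 0 (Vav-Ezh2-KO) RPKM. *Rpl39l* was at 0 in 5 libraries of 15 and had at most 90 reads, and *Rpl3l* had at most 10 reads. *Rpl10l* (testis) was at 0 in all 15 libraries.

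The 5 pseudogenes may have taken reads of their parent genes, so their values are uncertain. *Rpl31-ps12* measured 58.2, 69.9, 73.6, 70.9 and 61.1 RPKM in WT libraries, 58.6, 90.8, 60.8, 54.5 and 69.1 RPKM in Tie2-Ezh2-KO and 77.1, 70.4, 91.6, 61.05 and 121 RPKM in Vav-Ezh2-KO libraries, and shared 55.2% of its windows with *Rpl31*. *Rps15a-ps6* measured 13.6, 15.8, 15.3, 16.2 and 17.8 (WT), 12.6, 20.1, 11.5, 11.8 and 16.7 (Tie2-Ezh2-KO) and 17.5, 20.6, 20.95, 16.3 and 33.7 (Vav-Ezh2-KO) RPKM, and shared 36.1% with *Rps15a*. Both were highest in Vav-Ezh2-KO 28, as their parent genes were. WT means were 15.8 ± 2.85 RPKM (SD, n = 5) for *Rps19-ps3*, 11.9 ± 1.72 RPKM (SD, n = 5) for *Rps15a-ps4* and 0.156 ± 0.1900 RPKM (SD, n = 5) for *Rpl34-ps1*, the last from at most 4 reads per library. None was called, and 4 of 5 were higher in the mean in Vav-Ezh2-KO than in WT EMPs. *Rps19bp1*, the member that is not a ribosomal protein, had 79.9 ± 8.41 RPKM in WT, 88.6 ± 13.9 RPKM in Tie2-Ezh2-KO and 85.00 ± 11.1 RPKM in Vav-Ezh2-KO EMPs (SD, n = 5 each).

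The name rule misses some ribosomal proteins. *Fau* (chr19:6057947-6059524), which encodes Rps30 fused to a ubiquitin-like protein, measured 343, 449.8, 485, 469 and 450.0 RPKM in WT libraries, 388, 623, 444, 359 and 476 RPKM in Tie2-Ezh2-KO and 507, 437, 591, 455 and 677 RPKM in Vav-Ezh2-KO libraries. It was highest in Vav-Ezh2-KO 28 and, within its group, in Tie2-Ezh2-KO 9, like the members. *Gnb2l1*, or Rack1, a scaffold on the small subunit, measured 1154, 1212, 1268, 1356 and 1326 (WT), 1252, 1455, 1149.9, 1027 and 1147 (Tie2-Ezh2-KO) and 1288, 1207, 1388, 1262 and 1429 (Vav-Ezh2-KO) RPKM, with overlapping groups. Changes in Vav-Ezh2-KO against WT were 0.27, standard error 0.13 for *Fau* and 0.06, standard error 0.08 for *Gnb2l1*, neither called.

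Other lists of the pathway were read off the same fits. Against WT, limma called 0 of 76 mitochondrial ribosomal proteins, 0 of 50 translation factors, 0 of 18 other TOP mRNAs and 0 of 57 ribosome biogenesis genes in either knockout. At an unadjusted p under 0.05, 0, 0, 0 and 0 of them were higher in Tie2-Ezh2-KO EMPs, and 4, 4, 7 and 4 in Vav-Ezh2-KO EMPs, with 0, 0, 1 and 0 lower in the former and 1, 3, 0 and 8 in the latter. Over all 13646 genes tested in Vav-Ezh2-KO against WT, 546 were higher and 536 lower at that p, and over all 14154 tested in Tie2-Ezh2-KO against WT, 1163 and 389. Their median changes in Vav-Ezh2-KO EMPs were 0.08, 0.02, 0.12 and -0.05, beside 0.35 for RP genes. Of 16 p53 targets, *Phlda3*, which encodes an inhibitor of Akt signaling, rose in Tie2-Ezh2-KO EMPs (1.20, standard error 0.26, adjusted p = 0.0195 with limma), measuring 6.35, 5.13, 9.49, 8.33 and 3.96 RPKM in WT libraries and 23.7, 13.2, 11.9, 10.9 and 17.7 RPKM there. It was the only called gene of the list, where 343 of all 14154 genes tested were called higher, and 5 of the 16 were higher and 1 lower at an unadjusted p under 0.05. For *Phlda3*, all Tie2-Ezh2-KO libraries were above all WT libraries, the call was lost without Tie2-Ezh2-WT 10, Tie2-Ezh2-KO 7 or Tie2-Ezh2-KO 17 and with limma-voom, and no p53 target was called in Vav-Ezh2-KO EMPs. Between the knockouts, *Phlda3* (1.69, standard error 0.24, adjusted p = 0.00105 with limma) and the biogenesis factor *Nop56* (0.38, standard error 0.10, adjusted p = 0.0464 with limma) were called higher in Tie2-Ezh2-KO EMPs.

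Annotated start sites of RP genes were read for TOP tracts. RefSeq promoter entries (GRCm38.p6) matched 56 of 76 canonical members with 66 entries. A tract was counted where the annotated first base was C and at least the next 4 bases were each C or T, on the strand of the gene. Of the 56 genes, 13 had such a start (23.2%), beside 3.01% of all 27025 genes with an entry and 3 of 12 other TOP mRNAs. A C followed by at least 7 bases of C or T occurred within 50 bases of the annotated start of 47 of the 56 genes (83.9%), beside 32.0% of all genes and 4 of 12 other TOP mRNAs (33.3%). Annotated starts can be some bases away from the start in use, and a match is a description only. Below are 15 bases before and 15 from the annotated start for 7 members, with the tract in capitals where the rule found it. *Rps15a* and *Rps27* are among the least abundant. *Rps10* and *Rpl35* have tracts of 10 and 11 bases and were chosen after their starts were seen. *Rpl39*, *Rpl41* and *Rps28* were called lower in Tie2-Ezh2-KO than in Vav-Ezh2-KO EMPs and had no tract at the annotated start.
*Rps15a* (chr7:118116133-118116162, minus strand): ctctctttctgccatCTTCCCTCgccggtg
*Rps27* (chr3:90213634-90213663, minus strand): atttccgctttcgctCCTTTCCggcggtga
*Rps10* (chr17:27635230-27635259, minus strand): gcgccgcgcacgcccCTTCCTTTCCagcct
*Rpl35* (chr2:39005117-39005146, minus strand): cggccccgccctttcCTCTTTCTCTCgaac
*Rpl39* (chrX:37085208-37085237, minus strand): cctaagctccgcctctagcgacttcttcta
*Rpl41* (chr10:128549154-128549183, minus strand): cacacgggccggctcggaagtgacgacacc
*Rps28* (chr17:33824548-33824577, minus strand): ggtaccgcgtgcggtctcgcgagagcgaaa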

How the data were processed

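RNA of sorted E10.5 yolk sac EMPs was measured in 15 libraries of 4 groups, taken from the labels, with 16 PCR cycles. The labels give 500 cells per library and the paper gives 100, and which holds is not known. Per the submitters' processing notes and methods, reads were aligned to GRCm38/mm10 with TopHat2 2.0.13, keeping 1 alignment per read, and counted on RefSeq genes with featureCounts. The authors deposited RPKM on a linear scale for 17454 genes. Gene lengths and reads on genes per library were recovered from the steps between low RPKM values, which turned each of the 16877 genes with any signal into a whole number of reads per library (tolerance 0.001). Reads amplified by PCR are not independent molecules. Libraries came from separate yolk sacs. No pair of libraries of a group agreed within sampling noise (lowest chi-square per degree of freedom 16.4).

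log2(RPKM + 0.2) was fitted on the whole table with limma 3.58.1 in R 4.3.3 (empirical Bayes with trend, two-sided, Benjamini-Hochberg over all genes above 0.2 RPKM in at least 1 library, threshold 0.05), which was tested on simulated data. Fold changes on this scale understate changes of low genes. The comparisons were each knockout against the 5 WT libraries, the knockouts against each other, and the difference between the effects against each line's own WT libraries. A figure legend of the paper names 3 experiments, but the labels assign no library to them, so no batch term was used, and batch and group cannot be told apart. RPKM values are not counts, so limma-voom on the recovered reads was an alternative. Other alternatives were the pseudocount, the filter, the scaling, the WT libraries used, the libraries in the fit and leaving out each library. The classes of gene length, the removal of the length trend, the 75-base windows (GENCODE M21) and leaving out the libraries with visceral endoderm markers were chosen after seeing the data. The members and gene lists were chosen with earlier results of these data known.

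The genes named were the members called in any comparison, the 5 with the highest and 3 canonical members with the lowest WT mean, the 5 canonical members with the largest change in each knockout, all paralogs and pseudogenes, *Rps19*, *Rpl5* and *Rpl11*, the 3 canonical members with the lowest mean correlation, *Fau* and *Gnb2l1*, and genes of the other lists called against WT. Some genes that meet this rule are not reported here. Genes named outside this rule, such as those whose groups did not overlap, *Nop56*, *Rplp1*, *Rplp2*, *Rps10* and *Rpl35*, were chosen after their values were seen.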

Additional observations from a re-analysis of the deposited data

Results flagged for a closer look

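In groups of 5 libraries, single values that lay far from the other 4 were listed over 32 measures. Of 93 groups looked at, 12 held such a value. Chance flags about 1 in 20 independent groups, but most of these were correlated RP genes in the same libraries, so the count cannot be set against that rate. In Vav-Ezh2-KO 28, *Rpl41* was at 2530.4 RPKM (others 1448 to 1608), *Rpl36* at 1019 (others 569.7 to 678), *Rpl11* at 938 (others 626 to 699), *Rpl39* at 852 (others 407 to 523), *Rpl37a* at 729.8 (others 358 to 452) and *Rps20* at 678 (others 401 to 462). In Tie2-Ezh2-KO 9, *Rpl5* was at 1535 RPKM (others 997 to 1016), *Rpl10* at 1292 (others 626 to 811) and *Rpl36al* at 811 (others 448 to 530.2). Among WT libraries, *Rps27l* was at 803 RPKM in Tie2-Ezh2-WT 12 (others 608 to 652), and *Rpl3l* at 0.0397 RPKM in Tie2-Ezh2-WT 10 (others 0). *Rpl3l* was at 0.338 RPKM in Tie2-Ezh2-KO 11 (others 0 to 0.0390). In all 12 the value was above the others, and 9 of the 12 were in Vav-Ezh2-KO 28 or Tie2-Ezh2-KO 9.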

How the results depend on the processing

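No RP gene was called in Tie2-Ezh2-KO against WT, in Vav-Ezh2-KO against WT or in the difference between the effects under any of 23, 22 and 26 alternatives. The count of RP genes called between the knockouts, 7, was 0 with no filter, with each library scaled to a common median and without the trend in empirical Bayes, 11 with quantile normalization, 12 with RPKM rescaled to genes other than RP genes, 13 with all 15 libraries in 1 fit, and 26 with the length trend removed, which was chosen after seeing the data. Over all genes tested, 115 of 14120 were called lower with that rescaling and 158 of 14394 in the 1 fit, against 123 of 14120 in the main fit. They were 63 of 17454 with no filter, 122 of 14120 with the common median and 71 of 14120 without the trend. Leaving out 1 library gave 0 to 49 RP genes called, the latter where 339 of all 14004 genes tested were called lower. The cause was not tested. The 7 genes kept their direction and lost the call in 9 to 11 of 21 alternatives. The median pairwise correlation, 0.873, was 0.614 with quantile normalization and 0.839 to 0.895 without 1 library. The median change of RP genes ran from -0.17 to 0.02 in Tie2-Ezh2-KO (-0.17 to -0.00 without 1 library) and from 0.20 to 0.41 in Vav-Ezh2-KO EMPs (0.24 to 0.41). The difference in share ran from -0.733 to 0.1105 percentage points in Tie2-Ezh2-KO (-0.733 to 0.0199 without 1 library) and from 0.936, as a share of reads, to 2.06 in Vav-Ezh2-KO EMPs (1.19 to 2.06). Against WT, the call in Tie2-Ezh2-KO EMPs was lost for *Ezh2* in 12, *Phlda3* in 8, *Hbb-bh1* in 14 and *Hba-x* in 1 of 23 alternatives, the one without Tie2-Ezh2-WT 4 and Tie2-Ezh2-KO 7 also being chosen after seeing the data. Over all genes, calls ran from 187 to 493 in Tie2-Ezh2-KO (main 386), 0 to 2 in Vav-Ezh2-KO (main 1), 304 to 969 between the knockouts (main 495) and 2 to 32 in the difference between the effects (main 26). Between the knockouts, 372 genes were called higher in Tie2-Ezh2-KO and 123 lower, against 334 and 191 with quantile normalization and 425 and 334 with the length trend removed. No paired analysis was made, because the labels do not say which libraries of different groups belong together. Reads of near-identical copies cannot be separated in RPKM.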
